A study of Mus musculus with 6 samples.

Results

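The natriuretic peptide system of the heart comprises here 7 genes, chosen by name among the 49585 gene rows of the deposited table: the ligand genes Nppa and Nppb, the processing enzyme genes Corin and Furin, and the receptor genes Npr1, Npr2 and Npr3. All 7 were found, and all 7 passed the filter on low counts. Their ribosome-protected fragments, which are stretches of mRNA covered by a ribosome during digestion, were counted in the hearts of male mice aged 8 or 9 weeks per the labels. For the partial gravity group (PG, n = 3) a centrifuge of 15 cm radius, spinning at 31 rpm, gave the cages lunar gravity (0.167 g). The ground control group (GC, n = 3) lived at 1 g on the ground in housing matched to that on the space station, and its mice are labelled C57BL/6J, while the labels name only the supplier of the PG mice. Flight and gravity level cannot be told apart in this comparison, and the mission behind each library is not given. The labels do not say that each library is a separate animal, so p-values reflect only how these samples vary, which may be technical. No matched RNA-seq was used, so mRNA level and ribosome load cannot be told apart, nor can fewer cells of a type and less message per cell.

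Natriuretic peptides are hormones that heart muscle cells release when stretched. Atrial muscle cells store atrial natriuretic peptide (ANP, from Nppa) in granules, while ventricular cells raise Nppa and the B-type peptide gene Nppb under load, so both serve as readouts of wall stress. Each peptide is made as a longer precursor that a protease cuts: corin, a membrane serine protease of cardiomyocytes, cuts pro-ANP, and furin, a protease of the Golgi, is known to cut pro-BNP. ANP and BNP bind NPR-A (Npr1), a receptor with its own guanylyl cyclase that makes cGMP, whereas NPR-B (Npr2) answers mainly to the C-type peptide and NPR-C (Npr3) takes the peptides up and clears them.

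Both peptide genes lie on chromosome 4 of GRCm38, each with 3 exons. By the table's coordinates, shifted to count from 1, Nppb spans 147985788 to 147987205 and Nppa spans 148000722 to 148002079, 13517 bases further on. Their promoters are shown because the neighbouring genes gave different values below and because both carry short motifs of factors whose own fragments were counted. The RefSeq table (GRCm38.p6) held promoters for all 7 genes, from 250 bases before to 50 bases after the start annotated in RefSeq. The Nppa window is chr4:148000472-148000771 and the Nppb window chr4:147985650-147985949, both on the plus strand, printed 5′ to 3′ with the motifs in capitals.
Nppa promoter: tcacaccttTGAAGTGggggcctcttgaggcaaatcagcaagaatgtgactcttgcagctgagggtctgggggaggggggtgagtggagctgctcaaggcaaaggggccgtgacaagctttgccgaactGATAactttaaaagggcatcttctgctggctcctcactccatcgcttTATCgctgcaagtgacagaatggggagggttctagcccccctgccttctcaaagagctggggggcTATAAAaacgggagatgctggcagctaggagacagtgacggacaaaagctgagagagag
Nppb promoter: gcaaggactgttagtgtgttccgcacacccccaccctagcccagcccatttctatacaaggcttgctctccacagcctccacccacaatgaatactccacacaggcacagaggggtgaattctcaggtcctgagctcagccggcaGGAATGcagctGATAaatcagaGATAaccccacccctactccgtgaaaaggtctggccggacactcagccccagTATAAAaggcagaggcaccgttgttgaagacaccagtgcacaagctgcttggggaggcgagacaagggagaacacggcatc

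The capitals mark GATA on either strand (the core of GATA factor sites, which reads TATC on the other strand), GGAATG on either strand (bound by TEAD factors), TNAAGTG on either strand (bound by Nkx2-5) and TATAAA on the gene's strand. No 2 of the marked motifs overlap. The RefSeq start of Nppa is the one given above, but that of Nppb lies further on than 147985788. By the coordinates given above, the marked Nppb motifs therefore lie inside the gene. GATA occurred 2 times in each window, and 57.9% of 32851 promoters of the same length hold it. GGAATG occurred once, in Nppb alone of this pair (14.7% of promoters), and TNAAGTG once, in Nppa alone (11.5%). Each window held TATAAA, as did 8.32% of promoters. The CArG box of serum response factor was searched only as the exact pattern CCWWWWWWGG, with W for A or T. That pattern, present in 1.63% of promoters, was not among the letters of either window. Near matches were not searched, and the Nppa window holds ctttaaaagg, which differs from the pattern at a single letter. These matches describe the sequence and were not tested as binding sites.

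The libraries held 2212473 to 3196070 exon reads, of which the rows Lars2 and Tmem38b together took 45.5% to 52.5%. Levels are given as CPM (counts scaled to a common library size) after trimmed mean of M-values (TMM) scaling, group values as mean ± SD, and log2 fold changes as PG over GC ± SE from edgeR's quasi-likelihood test. The threshold, an adjusted p below 0.05, was passed by 53 of 9124 genes (0.581%), 23 higher and 30 lower, and with library size alone as the scaling 25 were higher and 16 lower. Of the 7 natriuretic peptide genes, 0 passed, and 2 (Nppb and Npr3) had an unadjusted p under 0.05, against 10.4% of all genes tested. By DESeq2 Nppb passed, 4 others did not, and Npr1 and Npr3 were given no adjusted p. PG replicate 3 had a chi-square per degree of freedom of 16.8 and 27.8 against the other PG libraries, where those of GC differed by 4.13 to 5.43. This measure includes Lars2 and Tmem38b. Tmem38b took 23.9% of the exon reads of PG replicate 3, against 9.16% and 12.6% in PG replicates 1 and 2. The measure was not computed without these rows, so it does not show whether other genes stood apart. Without PG replicate 3 the log2 fold changes were -0.18 for Nppa, -0.77 for Nppb (adjusted p of 0.269, edgeR), 0.26 for Corin and -0.31 for Furin. For Npr1, Npr2 and Npr3 they were -0.51, 0.16 and 0.54. The groups did not overlap in CPM for 3 of the 7, Nppb, Furin and Npr3, against 16.3% of all genes tested. The median log2 fold change of the 7 was -0.14, beside a median within 0.01 of 0 over all genes tested (-0.00168).

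**Figure D1:**
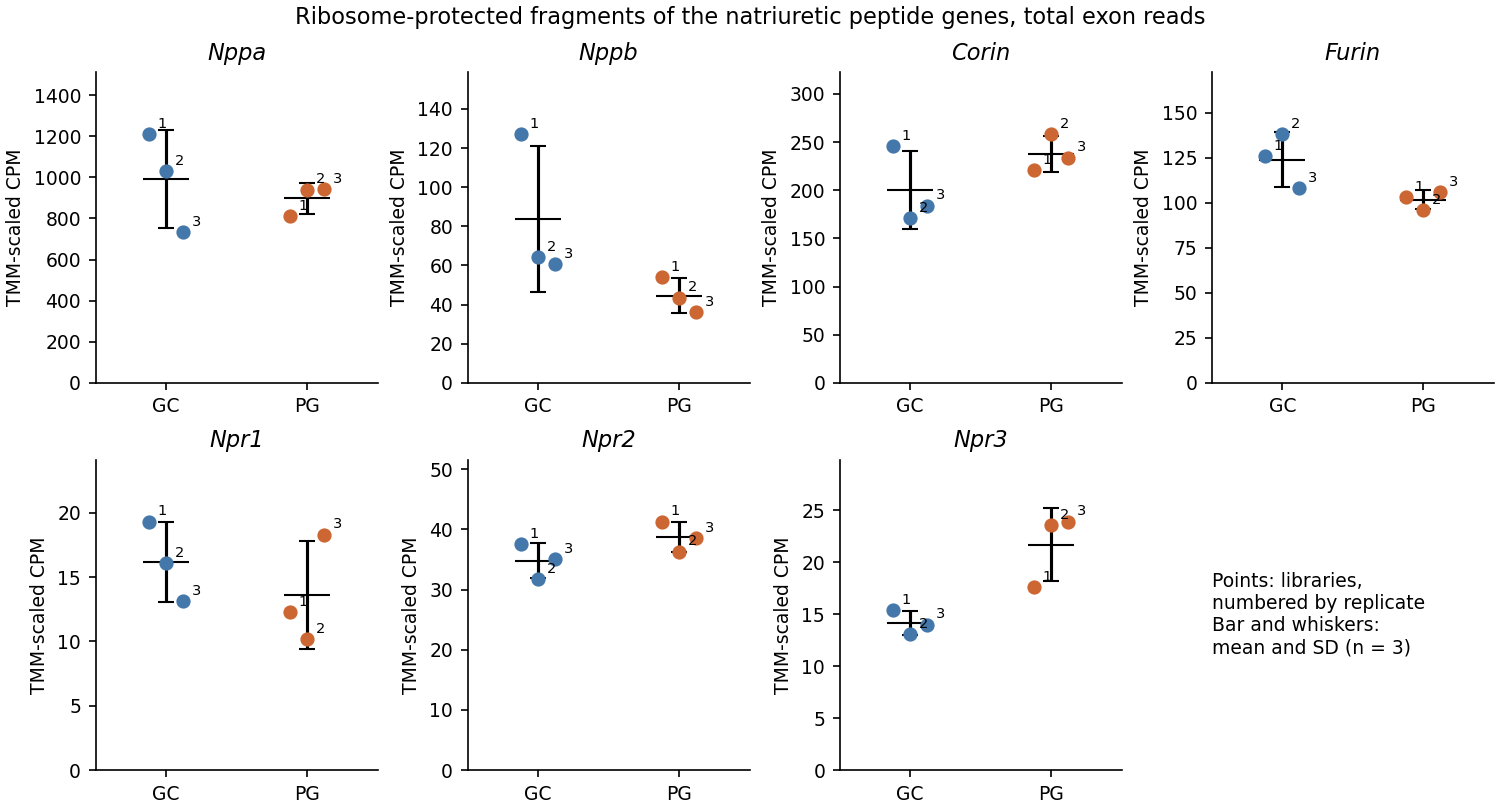
TMM-scaled CPM of total exon reads for the 7 genes in each of the 3 GC and 3 PG libraries (points, numbered by replicate), with the mean and SD per group (bar and whiskers). GC replicate 1 stands highest for Nppb at 127 CPM, and the 3 PG libraries of Npr3, at 17.6 to 23.9 CPM, all lie above its GC libraries.

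Nppb gave the largest difference of the 7 in size. Its counts were 263, 148 and 195 reads in GC replicates 1, 2 and 3 and 162, 137 and 77 in PG replicates 1, 2 and 3. After scaling these were 127, 64.4 and 60.6 CPM in GC and 53.9, 43.6 and 36.2 CPM in PG. In CPM all PG libraries were lower than all GC libraries, and GC replicate 1 stood well above the other 5. GC averaged 83.9 ± 37.1 CPM and PG 44.6 ± 8.9 (SD, n = 3 each), which made PG 1.85-fold lower. The log2 fold change was -0.89 ± 0.23 (SE), and its adjusted p, 0.0685 by edgeR, was just short of the threshold. Leaving out GC replicate 1 moved it to -0.48 ± 0.19 (adjusted p of 0.462), and leaving out GC replicate 3 moved it to -1.09 ± 0.23 (adjusted p of 0.0237, edgeR).

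Every Nppb exon read fitted a single place in the genome, so its counts were the same among unique reads as among total reads. On unique exon reads, where 90 of 8342 genes passed (1.08%, with 0.623% lower), Nppb fell, by the same log2 estimate of -0.89 ± 0.20 (adjusted p of 0.0128, edgeR). The gene's own reads do not differ between these 2 fits, whereas the other genes, the library totals and the number of genes tested do. Nppb also passed with the authors' expression values, with DESeq2 and with no filter on low counts. It passed in 5 of 17 other settings, and its log2 fold change was negative in all 17, from -1.09 to -0.48. The authors' deposited table gives Nppb a 1.86-fold lower level in PG (signed fold change -1.86), with p = 0.00555 and a corrected p of 0.811.

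**Figure D2:**
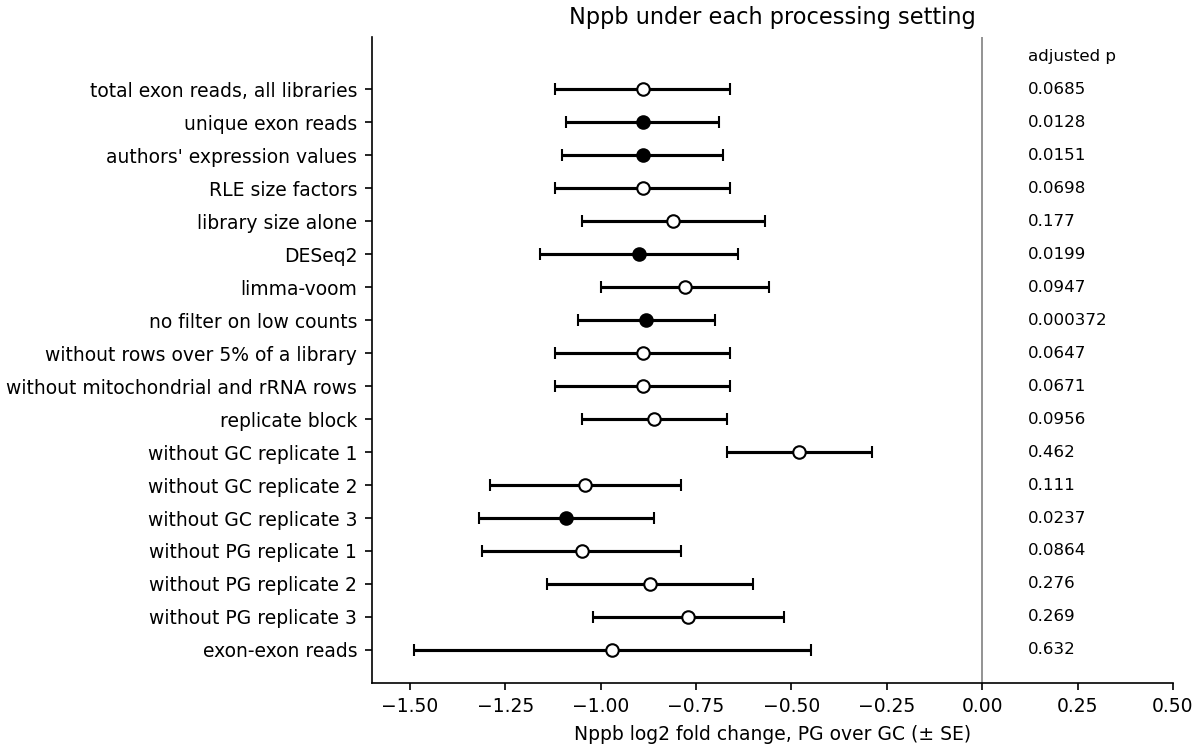
Nppb log2 fold change, PG over GC (points, with SE as whiskers), under the reported fit on total exon reads and 17 other settings, with the adjusted p at the right and filled points where it is below 0.05. All points lie below 0, and the one nearest to 0, at -0.48, leaves out GC replicate 1.

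Nppa, the most abundant of the 7 at rank 57 of 9124 genes tested by mean CPM, did not pass and showed no single direction. It had 2510, 2369 and 2363 exon reads in GC replicates 1, 2 and 3 and 2440, 2954 and 2010 in PG replicates 1, 2 and 3. The scaled levels were 1209, 1031 and 734 CPM in GC and 812, 940 and 944 CPM in PG, so the PG libraries lay inside the range of the GC libraries. GC averaged 991 ± 240 CPM and PG 899 ± 75.3 (SD, n = 3). The log2 fold change was -0.14 ± 0.14 (SE; adjusted p of 0.802, edgeR). Without GC replicate 1 it was 0.03, and without GC replicate 3 it was -0.32 with an adjusted p of 0.280 (edgeR).

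The direction of Nppa depended on which of its reads were counted. Only 37.9% of its reads fitted a single place, from 32.7% in GC replicate 1 to 42.8% in PG replicate 3. Unique reads numbered 822, 850 and 887 in GC and 911, 1222 and 861 in PG, with a log2 fold change of 0.07 ± 0.13 (adjusted p of 0.906, edgeR). Reads that fit several places numbered 1688, 1519 and 1476 in GC and 1529, 1732 and 1149 in PG, with a log2 fold change of -0.24 ± 0.19 (adjusted p of 0.822, edgeR). None of these fits called Nppa. The authors' deposited table, whose expression values leave out most reads that fit several places, gives Nppa a signed fold change of 1.06 (higher in PG), with p = 0.693.

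Reads that cross a splice junction stood apart in Nppa and Corin. This comparison, and those of reads that fit several places, were added after the counts had been seen. The exon-exon share of Nppa exon reads was 11.2%, 13.9% and 15.4% in GC and 17.4%, 18.7% and 18.8% in PG. For Corin it was 7.84%, 12.7% and 15.7% in GC and 18.2%, 16.4% and 19.6% in PG. In both genes every PG library lay above every GC library. That held for 7.14% of the 2829 tested genes with at least 60 exon-exon reads in all. Summed over all rows the share was 7.59% to 8.61% per library. Lars2 and Tmem38b took 45.5% to 52.5% of the exon reads in that sum, so it does not give the share of a typical gene. In Nppb the share overlapped between the groups, from 2.6% to 21.6%. It also overlapped in Furin (15% to 20.7%) and Npr2 (18.5% to 23.7%), and in Npr1 and Npr3, which had few such reads. Fitted on exon-exon reads alone, where 0.458% of 2839 genes passed, Nppa had a log2 fold change of 0.33 ± 0.15 (adjusted p of 0.504) and Corin 0.84 ± 0.23 (adjusted p of 0.0797, edgeR), and neither passed.

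**Figure D3:**
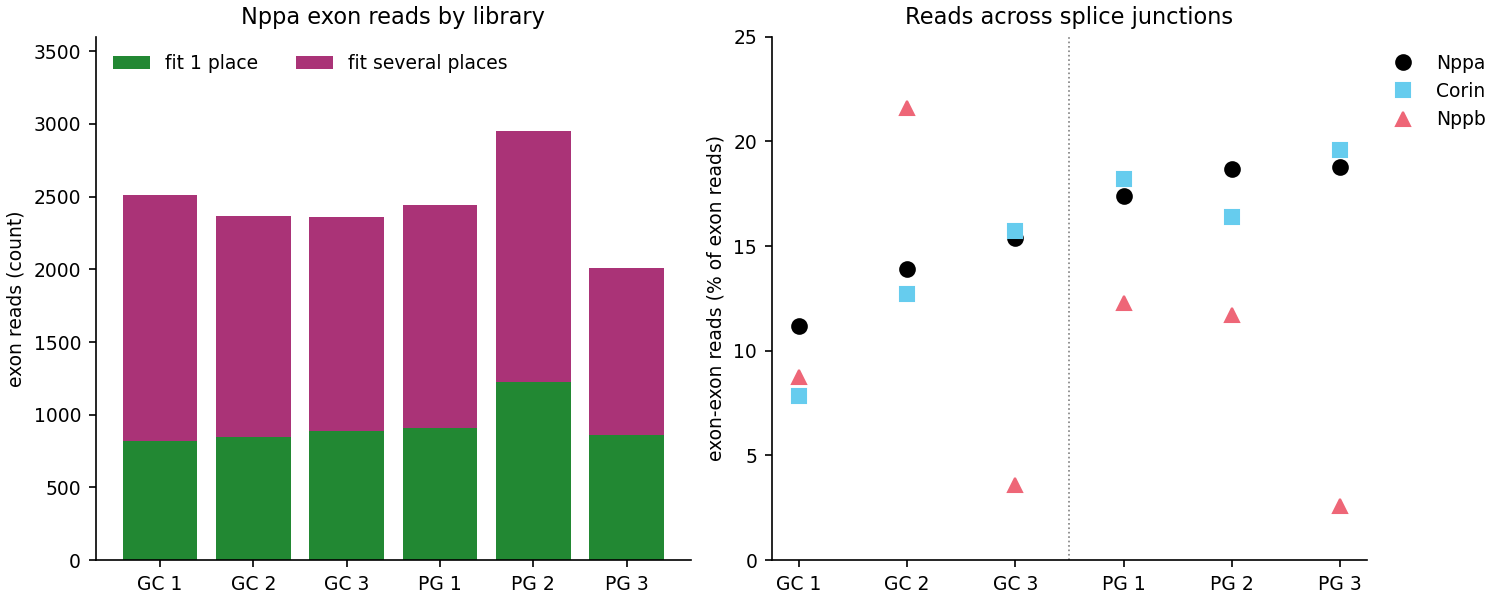
Left, Nppa exon reads per library as counts, split into reads that fit 1 place and reads that fit several. Right, the percentage of exon reads that cross an exon-exon junction for Nppa, Corin and Nppb in each library, with a dotted line between GC and PG; for Nppa the GC libraries lie at 11.2% to 15.4% and the PG libraries at 17.4% to 18.8%, while Nppb overlaps.

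The balance of the ligands does not depend on how libraries are scaled. Nppb made up 9.48%, 5.88% and 7.62% of the Nppa and Nppb exon reads in GC replicates 1, 2 and 3 and 6.23%, 4.43% and 3.69% in PG replicates 1, 2 and 3. The mean share was 7.66% ± 1.8 in GC and 4.78% ± 1.3 in PG (SD, n = 3), and PG replicate 1 overlapped the GC range. An exact permutation test of the difference gave a two-sided p of 0.2, where the smallest that 3 against 3 allows is 0.10. On unique reads the share was 19% ± 4.79 in GC and 11.1% ± 3.56 in PG (SD, n = 3), with the same exact p of 0.2.

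Corin had 510, 393 and 591 reads in GC replicates 1, 2 and 3 and 664, 809 and 499 in PG replicates 1, 2 and 3, which scaled to 246, 171 and 184 CPM in GC and 221, 258 and 234 CPM in PG. GC replicate 1 lay among the PG libraries, and the other GC libraries lay below all of them. The log2 fold change was 0.25 ± 0.14 (adjusted p of 0.561, edgeR). Without GC replicate 1 the log2 fold change of Corin was 0.42, with an adjusted p of 0.321 (edgeR), and without GC replicate 2 it was 0.15 (0.855). Of its reads, 60.9% fitted a single place, and on these the log2 fold change was 0.17 ± 0.14.

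Furin differed in the other direction and also missed the threshold. Its reads numbered 261, 318 and 347 in GC and 311, 301 and 226 in PG, or 126, 138 and 108 CPM against 103, 95.8 and 106 CPM. The groups did not overlap in CPM, but the lowest GC library (108 CPM) and the highest PG library (106 CPM) nearly met. The log2 fold change was -0.28 ± 0.14 (adjusted p of 0.504, edgeR), PG being 1.22-fold lower, and 99.9% of Furin reads were unique.

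**Figure D4:**
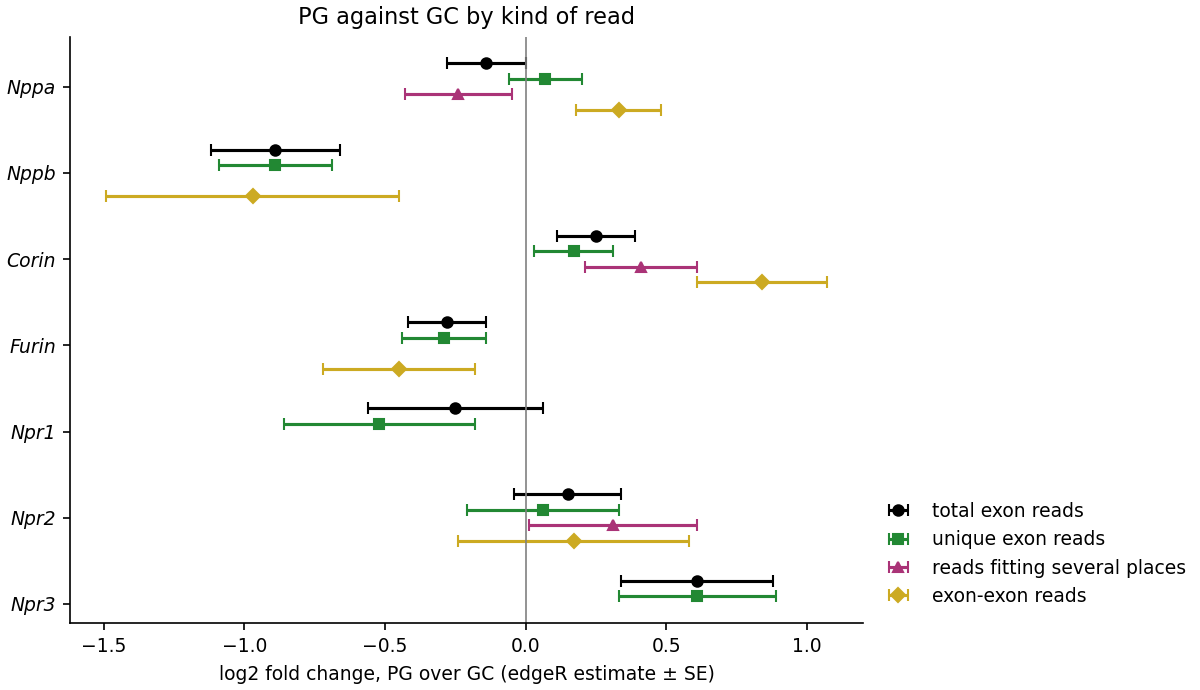
Log2 fold change, PG over GC (edgeR estimate with SE as whiskers), of the 7 genes on total exon reads, unique exon reads, reads that fit several places and exon-exon reads, where each could be tested. Nppb lies between -0.97 and -0.89 on 3 kinds of read, whereas Nppa runs from -0.24 to 0.33.

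The 3 receptor genes had few fragments, so their values carry more counting error than those of Nppa. This does not set all of them apart from Nppb, which had 77 reads in PG replicate 3, where Npr2 had 82. Npr3, the clearance receptor, had 32, 30 and 45 reads in GC replicates 1, 2 and 3 and 53, 74 and 51 in PG replicates 1, 2 and 3, all of them unique. These were 15.4, 13.1 and 14 CPM in GC and 17.6, 23.6 and 23.9 CPM in PG, and every PG library was above every GC library. Npr3 was 1.53-fold higher in PG (log2 fold change 0.61 ± 0.27, unadjusted p of 0.0327, adjusted p of 0.424, edgeR). It was positive in all 16 other settings, from 0.54 to 0.74, and passed in none of the 15 that gave an adjusted p, which ran from 0.407 to 0.740. The authors' deposited table lists Npr3 with a signed fold change of 1.54 (higher in PG), p = 0.0142 and a corrected p of 1.

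Npr1, the receptor for ANP and BNP, had 40, 37 and 42 reads in GC and 37, 32 and 39 in PG, or 19.3, 16.1 and 13.1 CPM against 12.3, 10.2 and 18.3 CPM. The groups overlapped, with PG replicate 3 near the top of the GC range, and the log2 fold change was -0.25 ± 0.31 (adjusted p of 0.847, edgeR). With 1 library left out at a time it ran from -0.51, without PG replicate 3, to -0.08, without PG replicate 2.

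Npr2 stood at 37.6, 31.8 and 35.1 CPM in GC and 41.3, 36.3 and 38.5 CPM in PG, from 73 to 124 reads per library, and 57% of its reads were unique. Its groups overlapped, and the log2 fold change was 0.15 ± 0.19 (adjusted p of 0.851, edgeR). As a share of all receptor reads, a value chosen after the counts were seen and not tested, Npr3 made up 21.3%, 21.4% and 22.5% in GC and 24.8%, 33.6% and 29.7% in PG.

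Levels between genes were compared per length with the authors' RPKM, reads scaled to exon length and to mapped reads. Exon length includes untranslated parts that ribosomes rarely cover, so this scale understates genes with long untranslated regions. Over the 6 libraries Nppa ran from 237 to 357 RPKM, Nppb from 12.7 to 39.9, Corin from 8.97 to 15.7, Furin from 3.17 to 4.27, Npr2 from 1.93 to 2.93, Npr1 from 0.700 to 1.05 and Npr3 from 0.534 to 1.12. The ranges of Nppb and Corin overlapped, as did those of Npr1 and Npr3, while the other neighbours in this order were apart. On this scale, which is not TMM-scaled, Nppa averaged 306 ± 59.7 RPKM in GC and 323 ± 30.7 in PG (SD, n = 3). Its PG mean was higher than its GC mean, opposite in direction to CPM. Nppb kept a lower PG mean (28.3 ± 10.1 in GC, 18 ± 5.11 in PG), but its groups overlapped. PG replicate 1 stood at 22.9 RPKM and GC replicate 3 at 21.7. Furin overlapped too, with PG replicate 1 at 3.74 and GC replicate 3 at 3.29. Corin, Npr2 and Npr3 did not overlap, with PG higher, although Corin and Npr2 overlapped in CPM. Exon reads were a larger part of the mapped reads, as worked out from RPKM, in every PG library than in any GC library. RPKM therefore sets PG levels higher relative to GC than scaling to exon reads does, for all genes alike. The share of all genes without overlap in RPKM was not computed, so these separations and the direction of Nppa in RPKM cannot be read as particular to these genes.

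The other ligands of these receptors, the C-type peptide gene Nppc and the osteocrin gene Ostn, an NPR-C ligand, had 0 exon reads in every library and could not be compared. Of 35 other genes listed for the pathway, 34 had a row, 25 were tested, 1 passed as higher (0.252% of all genes tested did) and 0 as lower (0.329%), and an unadjusted p under 0.05 in edgeR was found for 4 with higher and 0 with lower PG levels, against 10.4% of all genes tested in either direction. Pde2a was not analysed here. The median log2 fold change of the 25 was 0.15, against -0.00168 over all genes tested.

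Among 3 tested enzymes that activate or break down the peptides, Ide rose. It encodes insulin-degrading enzyme, a protease known to cleave ANP. Its reads numbered 58, 79 and 143 in GC replicates 1, 2 and 3 and 210, 201 and 163 in PG replicates 1, 2 and 3, or 27.9, 34.4 and 44.4 CPM against 69.9, 64 and 76.5 CPM. All PG libraries were higher (log2 fold change 0.96 ± 0.19, adjusted p of 0.0133, edgeR). Ide missed the threshold without GC replicate 1 (adjusted p of 0.0563), GC replicate 2 (0.0952), PG replicate 1 (0.0566) or PG replicate 3 (0.0585, edgeR). Pcsk6, whose protease activates corin, had a log2 fold change of 0.15 ± 0.19, and Mme, which encodes the peptide-degrading neprilysin, -0.34 ± 0.50.

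The cGMP effectors and phosphodiesterases had a median of 0.30 over 6 tested genes, of which 5 were positive and 0 passed. The most abundant were the phosphodiesterase genes Pde3a, with a GC mean of 89 ± 10.2 CPM and a PG mean of 112 ± 10.2 (log2 fold change 0.32 ± 0.15, adjusted p of 0.447), and Pde1c, with means of 25.8 ± 5.96 and 42.3 ± 8.52 CPM (SD, n = 3; log2 fold change 0.70 ± 0.22, adjusted p of 0.190, edgeR). The PG libraries of Pde1c all lay above its GC libraries. Summed over the 10 genes of this list in the table, the level was 159, 164 and 182 CPM in GC and 211, 223 and 215 CPM in PG, with no overlap. Pde3a and Pde1c made up most of this sum. Of the 6 tested genes only Pde1c had groups that did not overlap, as did 16.3% of all genes tested. The nitric oxide arm, which makes cGMP by soluble guanylyl cyclase, had a median of 0.09 over 3 genes. Its most abundant genes, the nitric oxide synthase gene Nos3 (-0.14 ± 0.29) and the cyclase subunit gene Gucy1a3 (0.29 ± 0.32), did not pass in edgeR.

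The transcription factors known to act at the peptide promoters had a median of 0.03, with 8 positive, 5 negative and 0 of 13 past the threshold in edgeR. At an unadjusted p under 0.05, 1 was higher (Mef2a, 0.46 ± 0.16). Only 19.6% of Mef2a reads were unique, and its groups overlapped. Tead1, whose factor family binds GGAATG, was the most abundant, with 219, 218 and 252 CPM in GC replicates 1, 2 and 3 and 265, 266 and 288 CPM in PG replicates 1, 2 and 3. Its groups did not overlap, but it did not pass (log2 fold change 0.25 ± 0.13, adjusted p of 0.504, edgeR). Mef2d, the next most abundant, had a log2 fold change of -0.07 ± 0.14. The factor genes whose motifs stand in capitals above had log2 fold changes of -0.07 ± 0.16 for Gata4, 0.02 ± 0.19 for Gata6 and 0.03 ± 0.19 for Nkx2-5. Of other genes that respond to cardiac load, Myh7 was 5.95-fold higher and Acta1 2.57-fold lower in PG, and Ankrd1 (0.52 ± 0.13, adjusted p of 0.0662, edgeR) did not pass. Only 57.6% of Myh7 reads and 15.3% of Acta1 reads were unique. On unique reads their log2 fold changes were 2.89 ± 0.14 and -1.08 ± 0.24, against 2.57 ± 0.15 and -1.36 ± 0.17 on total reads.

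**Figure D5:**
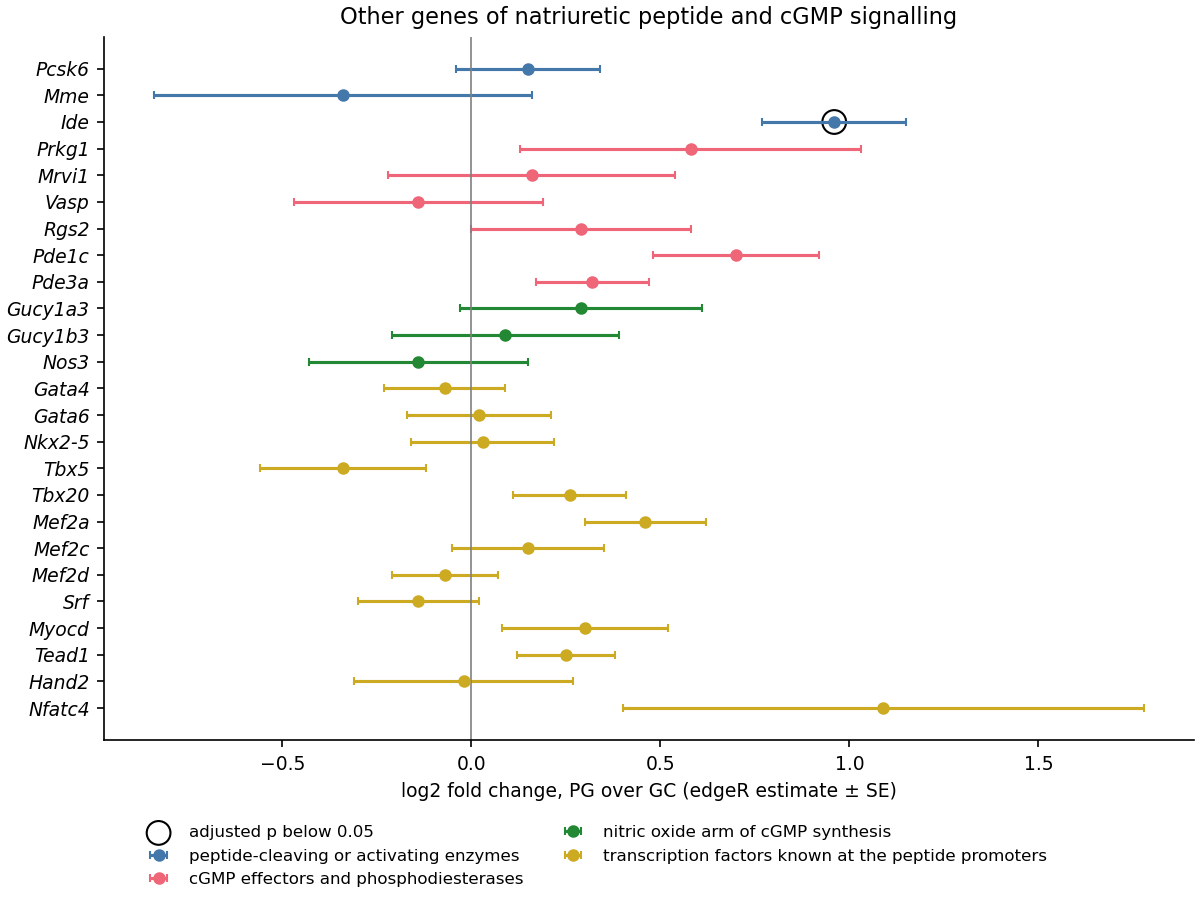
Log2 fold change, PG over GC (edgeR estimate with SE as whiskers), of the 25 tested pathway genes, coloured by list, with a ring around the gene whose adjusted p is below 0.05. Ide at 0.96 is ringed, and the GATA factor genes lie near 0.

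The rows around the peptide genes on chromosome 4 were read as a local comparison. Within 50 kb, Clcn6 (-0.39 ± 0.41), Plod1 (-0.05 ± 0.17) and 2510039O18Rik (-0.66 ± 0.19, adjusted p of 0.119, edgeR) were tested and did not pass. Gm13054, a predicted gene whose row overlaps Nppa, had 5, 0 and 3 reads in GC and 0, 8 and 0 in PG. Among 6171 genes with at least 10 CPM and no predicted name, those whose log2 CPM over the 6 libraries was most like Nppa were Surf4, Rabggta and Cuedc2 (Pearson's r of 0.98 each). Those most like Nppb were Marveld1, Man1b1 and Tnks1bp1 (0.99 each), and Nppa with Nppb gave 0.54. These values describe 6 points that share libraries and scaling, and none of the 6 genes passed in edgeR.

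Atrial tissue, the main store of ANP, was present in the libraries. All 8 atrial markers had reads, and their summed level was 679 to 807 CPM in GC and 521 to 711 in PG. The 8 went both ways: Dkk3 rose 1.82-fold (adjusted p of 0.0102, or 0.117 without PG replicate 2, edgeR), while the atrial light chain genes Myl7 (-0.66 ± 0.17, adjusted p of 0.0852) and Myl4 (-0.58 ± 0.15, adjusted p of 0.0693) and the potassium channel gene Kcnj3 (0.84 ± 0.22, adjusted p of 0.0723, edgeR) did not pass. The part of atrial content in the Nppa and Nppb values was not tested. The ventricular markers summed to 13690 to 16337 CPM in GC and 13026 to 13903 in PG, and 0 of 7 tested passed in edgeR.

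Endothelial cells carry Npr1 and Npr3. The 10 endothelial and endocardial markers summed to 459 to 513 CPM in GC and 480 to 530 in PG, with a median log2 fold change of 0.02, and 0 passed in edgeR, where 0 also had an unadjusted p under 0.05. The fibroblast markers stood at 575 to 641 CPM in GC and 544 to 553 in PG, and 0 of 6 tested passed in edgeR. The collagen genes Col1a1 and Col3a1, with lower PG means, had an unadjusted p under 0.05, whereas Pdgfra, a receptor gene of fibroblasts, stood at 20.2 to 25.2 CPM in GC and 26.9 to 32.4 in PG. The smooth muscle markers stood at 199 to 232 and 144 to 178 CPM, most of it from Acta2, while Myh11 (0.20 ± 0.32) and Tagln (-0.15 ± 0.24) did not pass. Acta2 fell 1.56-fold (adjusted p of 0.0321, edgeR) and missed the threshold without GC replicate 1 (0.101), GC replicate 2 (0.109), PG replicate 1 (0.173) or PG replicate 2 (0.248), and with library size alone as the scaling (0.0945). Epicardial and mesothelial markers stayed at or under 9.63 CPM and lung markers at or under 1.41 CPM, with Sftpc, Sftpb and Scgb1a1 at 0 in all libraries. The part of these cells in the receptor values was not tested.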

How the data were processed

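Libraries of 25 to 35 nt fragments came from RNase I digests of heart lysates cleared of nuclei and mitochondria, pelleted through 50% sucrose, per the labels' protocols. Per the file headers, the authors deposited counts of total, unique and exon-exon reads for 49585 gene rows, RPKM values, and their own test, called EDGE, with a p-value, a corrected p-value and a signed fold change for each row (a ratio, negative where lower in PG). The authors' expression values, also counts, add the non-unique exon-exon reads to the unique exon reads, as the rows themselves show. The submitters' processing notes name the builds GRCm38 and mm10. The sources used here do not name the aligner, counter or strand setting. Left unused were 36 other per-library columns.

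In R 4.3.3, edgeR 4.0.16 was run on total exon reads of all rows (minimum count 10 in filterByExpr, TMM, glmQLFit, glmQLFTest; group as the only term), with Benjamini-Hochberg adjusted p below 0.05 over 9124 genes. SE is the log2 fold change over the root of F. Likeness used log2 CPM with a prior count of 2. The fit was tested on simulated data. Alternatives, among them DESeq2 1.42.0 and limma-voom (limma 3.58.1), are in the closing section. Read counts include PCR duplicates. No pair of libraries of a group agreed within sampling noise (chi-square per degree of freedom of 4.13 to 27.8). The members, gene lists and tests were chosen with earlier results of these data known. Named genes are the 7 members, the load genes, rows within 50 kb (not all are reported here), the 3 genes most like each peptide gene, and, from each pathway list, called genes or otherwise the 2 most abundant tested; Mef2a, Gata4, Gata6, Nkx2-5, Pcsk6, Mme and single markers were named after their values were seen.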

Additional observations from a re-analysis of the deposited data

How the results depend on the processing

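Under other settings the 53 called genes became 90 on unique exon reads, 88 with the authors' expression values, 127 with DESeq2, 80 with limma-voom, 181 with no filter on low counts and 22 with the replicate block, and 19 to 102 with a library left out. The Nppb log2 fold change passed at -0.89 on unique exon reads (adjusted p of 0.0128), -0.89 with the expression values (0.0151), -0.90 with DESeq2 (0.0199) and -0.88 with no filter (0.000372); with a library left out it was -1.09 to -0.48, and adjusted p ran from 0.000372 to 0.632 over all settings. Nppa turned positive on unique exon reads (0.07), expression values (0.07) and exon-exon reads (0.33), and was -0.32 to 0.03 with a library left out; the cause was not tested. Corin, Furin, Npr1, Npr2 and Npr3 kept their direction and stayed short of the threshold in every setting run; DESeq2 gave Npr1 and Npr3 no adjusted p. The difference in Nppb share was -2.88 percentage points, -7.90 on unique reads, and -3.77 to -1.97 with a library left out. Same-numbered libraries did not deviate together across genes (correlations of -0.00833, -0.0323 and -0.0138), but a small shared effect cannot be told from these values. With the replicate block Nppb was -0.86 (adjusted p of 0.0956, edgeR) and Nppa -0.12. Dkk3 (0.0532) and Acta2 (0.134) missed the threshold there, and Ide (0.0461) passed. The paired difference in share was -2.88 (exact sign-flip p of 0.25, the smallest that so few pairs allow). Depth limits the receptors, at 30 to 124 reads per library, and also Nppb, at 77 reads in PG replicate 3.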

Other observations

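Intron reads entered no comparison, and the values are raw counts. Corin had 30, 31 and 80 intron reads in GC replicates 1, 2 and 3 and 10, 13 and 23 in PG replicates 1, 2 and 3. The other 6 genes had 5 or fewer intron reads in any library, and Nppa had 5 in all against 14646 exon reads.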
